A study of Mus musculus with 2 samples.

Results

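The vomeronasal type 1 receptor genes (Vmn1r) of the mouse were described by their place among chromatin loops of embryonic stem cells. The members were the protein-coding RefSeq genes of chromosomes 1 to 19 whose symbol starts with Vmn1r, which gave 231 of 20665 autosomal protein-coding genes. Genes less than 500 kb apart were joined, which gave 16 clusters on 7 chromosomes with a summed length of 10.98 Mb. A loop was counted for a cluster when an anchor lay in it or within 100 kb of it, or when the loop enclosed it. That rule gave 24 of the 4858 autosomal loops (0.494%).

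Vmn1r genes encode receptors with 7 membrane-spanning segments that act in sensory neurons of the vomeronasal organ, where rodents detect pheromones and other social odours. Each such neuron is thought to express 1 receptor of the family, and the genes lie in tandem arrays that grew by duplication. The receptors couple to an inhibitory G protein and, through a phospholipase, to the channel Trpc2. Chromatin loops are formed largely by cohesin, a ring complex that extrudes DNA until it meets bound CTCF.

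Micro-C maps contacts between distant stretches of chromatin after digestion with micrococcal nuclease, and was performed on 2 samples of V6.5 cells, a male mouse embryonic stem cell line grown on gelatin. Both belonged to 1 group, siControl: wild-type cells given the siGLO transfection control reagent at 50 nM and collected 48 hours later. The data were 1 list of 4982 loops for the group, so no spread between replicates could be measured and nothing was tested against it. The read depth is unknown. The list carries no expression values, and neither the cell type nor receptor expression was checked here. Coordinates are in mm10.

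The label was checked against the gene table. Older synonyms of 128 of the 231 genes place them in a V1r subfamily, and 103 genes have no such synonym. The members include Vmn1r-ps103, which the gene table gives as protein-coding under a pseudogene symbol. The records were short, with a median of 924 bp (quartiles 918 and 958.5 bp, range 870 to 33695 bp). Of the records, 201 (87.0%) had a length that is a multiple of 3. Strand and the 300 bases around the record's first base were held for 206 genes, and in 181 of these (87.9%) the record began with ATG. Most records therefore span the coding sequence alone, and upstream exons of these genes are not in the records.

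Few Vmn1r genes lay at loop anchors. Both ends of a gene record were considered, and a gene was counted when either lay inside an anchor. This held for 4 of 231 Vmn1r genes (1.73%, exact 95% interval 0.474 to 4.37%), against 1899 of all 20665 autosomal protein-coding genes (9.19%). The 4 genes were Vmn1r1, Vmn1r25, Vmn1r171 and Vmn1r174. Vmn1r records are far shorter than the median protein-coding record of 17491 bp, so both ends usually fall in 1 place. Among 389 genes with records under 1000 bp outside the 5 chemoreceptor families considered here, 18 had an end at an anchor (4.63%, 2.77 to 7.21%), a set chosen after the data were seen. Intervals cover counting error only, and neighbouring genes are not independent of each other. Counting any overlap with an anchor left the Vmn1r count at 4, against 18.1% of all genes.

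Shares at anchors were also below that of all genes in the related receptor families. Vmn2r genes, the second vomeronasal receptor family, had 6 of 123 (4.88%, 1.81 to 10.32%). Olfactory receptor genes (Olfr), whose records are about as short (median 950 bp), had 22 of 1104 (1.99%, 1.25 to 3.002%). Bitter taste receptor genes (Tas2r) had 0 of 35, for which the exact interval reaches 10.003% and a floor of 3 counts 8.57%. Trace amine-associated receptor genes (Taar) had 1 of 15 (6.67%, 0.169 to 31.9%). The intervals of these 4 families overlapped that of Vmn1r, and those of Vmn2r, Tas2r and Taar also took in the 9.19% of all genes.

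**Figure D1:**
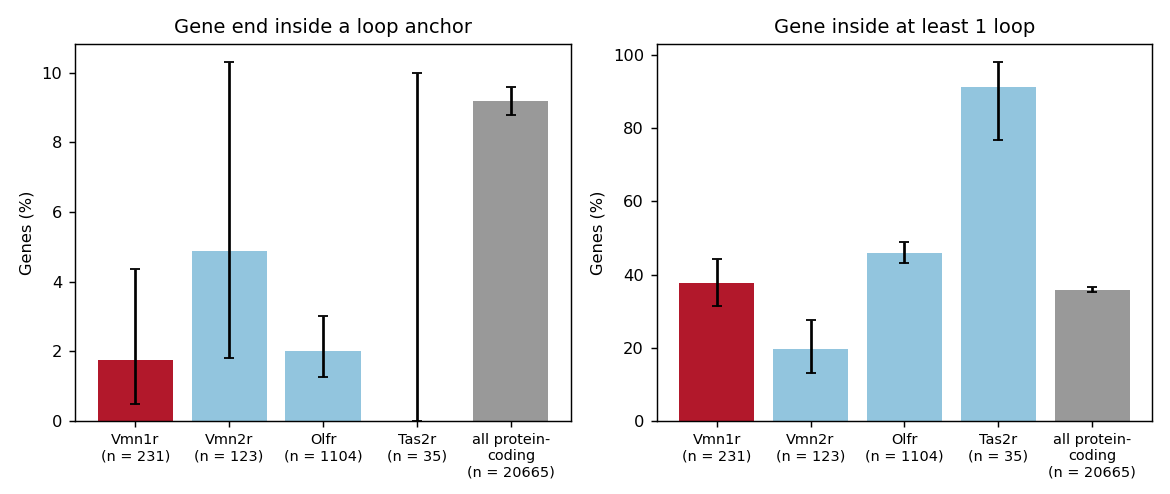
Share of genes with an end inside a loop anchor (left) and inside at least 1 loop (right), in percent, for Vmn1r genes, 3 other receptor families and all autosomal protein-coding genes. Bars are shares and whiskers are exact 95% intervals for counting error. Vmn1r stood at 1.73% against 9.19% of all genes on the left, and at 37.7% against 35.9% on the right.

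Being inside a loop was a different matter. Of the 231 Vmn1r genes, 87 (37.7%, 31.4 to 44.3%) lay between the outer edges of at least 1 loop, close to the 35.9% of all autosomal protein-coding genes. Vmn2r genes had 19.5% (12.9 to 27.6%), Olfr genes 46.0% (43.0 to 49.0%) and Tas2r genes 91.4% (76.9 to 98.2%), and all 15 Taar genes were inside one. The other genes with short records, a set chosen after the data were seen, had 51.2% (46.1 to 56.2%). These intervals cover counting error only, and genes inside the same loops are not independent. Of the 87 Vmn1r genes, 36 were enclosed by the same 3 loops on chromosome 13. The Vmn1r share depended on long loops: with loops of 1 Mb or less it was 17.3% (40 genes), against 30.3% of all genes. Restricted to loops whose peak score exceeded the median at their pixel size, it was 21.2% (49 genes), against 23.4% of all genes. In both of these settings the Vmn1r share was below that of all genes, where with all loops it was slightly above it.

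Anchors were sparse over the clusters. The 16 clusters held 11 merged anchors, or 1.00 per Mb (exact Poisson 95% interval 0.500 to 1.79), against 3.48 per Mb over the autosomes. Vmn2r clusters held 1.04 per Mb (0.556 to 1.78) and Olfr clusters 1.72 per Mb (1.28 to 2.25). The 1 Taar cluster, of 0.189 Mb, held 1 anchor. On chromosome 6 the Vmn1r clusters held 2.12 anchors per Mb, against 3.10 on the whole chromosome, and on chromosome 7 they held 0.764, against 2.42. The clusters of chromosomes 13 and 17 held none. Of the summed cluster length, 35.3% lay inside a loop, against 52.4% of the autosomes.

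The distance to the nearest anchor showed the same sparseness gene by gene. The median Vmn1r gene lay 506 kb from an anchor (quartiles 166 and 1869 kb), against 57.4 kb for all autosomal protein-coding genes. Within 20 kb of an anchor were 11 Vmn1r genes (4.76%), against 33.4% of all genes, and within 100 kb were 40 (17.3%), against 60.7%. The medians were 846 kb for Vmn2r, 205 kb for Olfr and 594 kb for Tas2r genes, and 117 kb for the other genes with short records. That of the Taar genes, 29.4 kb, was below the median of all genes. On chromosome 7, where other protein-coding genes also lay far from anchors, the medians were 1326 kb for Vmn1r genes and 153 kb for the other genes.

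**Figure D2:**
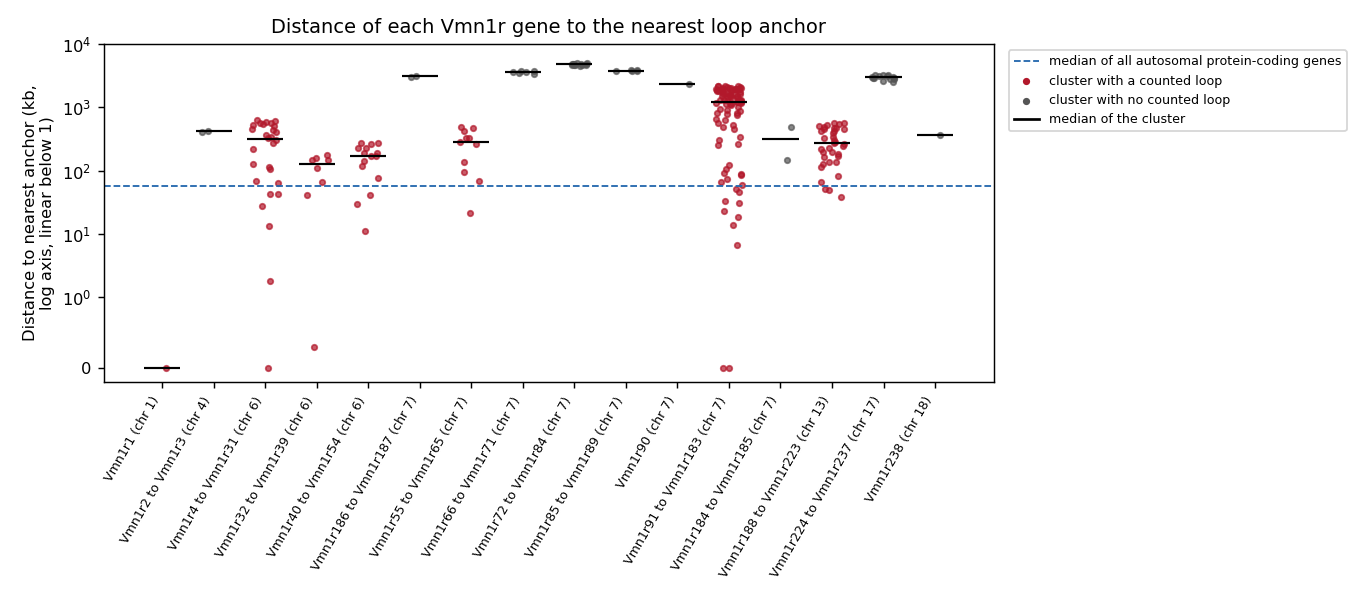
Distance of each Vmn1r gene to the nearest loop anchor in kb, on an axis that is logarithmic above 1 kb and linear below, by cluster. Points are genes, black bars are cluster medians and the dashed line is the median of all autosomal protein-coding genes (57.4 kb). The medians of 15 of the 16 clusters lay above that line, and Vmn1r1, alone in its cluster, lay in an anchor.

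The 4 genes at anchors differed in place and in sequence. Vmn1r1 (chromosome 1, 182157178 to 182158098, minus strand) stands alone, and its whole record lay in the anchor chr1:182155001-182160000. A loop of 165 kb joined it to an anchor within Fbxo28, with a peak score (taken to be a score of the loop caller, without unit) of 4.59. Vmn1r25 (chromosome 6, 57978394 to 57979302, minus strand), of the V1rc subfamily, lay in an anchor with a loop of 790 kb and a peak score of 4.89. Vmn1r171 (chromosome 7, 23631988 to 23633568) and Vmn1r174 (23753911 to 23754852), both of the V1rd subfamily and on the plus strand, lay in anchors with loops of 280 and 425 kb and peak scores of 8.16 and 5.87. The first base of all 4 records lay inside the anchor. The 300 bases from 250 before that base to 50 after its position are shown because they are the stretches that the 4 anchors hold in common by position. They are from RefSeq on GRCm38.p6, the assembly that mm10 names, 5′ to 3′ on the gene's strand, at chr1:182158049-182158348, chr6:57979253-57979552, chr7:23631738-23632037 and chr7:23753661-23753960. Capitals mark the first 3 bases of the record, which are ATG in all but Vmn1r171.
Vmn1r1: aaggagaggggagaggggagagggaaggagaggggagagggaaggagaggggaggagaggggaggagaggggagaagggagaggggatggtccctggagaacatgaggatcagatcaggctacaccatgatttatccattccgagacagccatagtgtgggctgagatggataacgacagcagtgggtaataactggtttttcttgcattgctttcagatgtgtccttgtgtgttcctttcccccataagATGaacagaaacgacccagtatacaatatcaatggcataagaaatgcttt
Vmn1r25: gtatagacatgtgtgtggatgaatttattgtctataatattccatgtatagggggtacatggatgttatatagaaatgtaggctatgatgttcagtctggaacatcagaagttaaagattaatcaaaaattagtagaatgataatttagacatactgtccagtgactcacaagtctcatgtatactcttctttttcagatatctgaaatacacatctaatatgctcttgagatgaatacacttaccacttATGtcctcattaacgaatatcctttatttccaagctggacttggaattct
Vmn1r171: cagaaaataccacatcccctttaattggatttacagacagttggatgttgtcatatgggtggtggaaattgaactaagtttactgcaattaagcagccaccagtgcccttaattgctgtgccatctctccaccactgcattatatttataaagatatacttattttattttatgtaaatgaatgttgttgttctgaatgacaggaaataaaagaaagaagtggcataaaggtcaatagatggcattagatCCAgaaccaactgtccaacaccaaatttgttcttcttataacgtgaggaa
Vmn1r174: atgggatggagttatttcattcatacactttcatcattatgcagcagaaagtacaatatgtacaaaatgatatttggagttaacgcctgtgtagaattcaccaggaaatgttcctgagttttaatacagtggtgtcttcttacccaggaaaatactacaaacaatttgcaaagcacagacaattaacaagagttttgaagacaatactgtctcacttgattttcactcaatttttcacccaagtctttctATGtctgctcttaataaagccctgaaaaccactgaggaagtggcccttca

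These 4 windows had little in common. Their pairwise identity in global alignments was 42.1 to 50.3%, close to the median of 48.2% over 16603 pairs of Vmn1r windows from different clusters. Within clusters the median over 4512 pairs was 79.2%. Most of those pairs came from the chromosome 7 cluster Vmn1r91 to Vmn1r183, which held 83 of the 206 windows. The window of Vmn1r174 was 99.0% identical to that of its neighbour Vmn1r173, whose record lay 46.7 kb from an anchor. The window of Vmn1r25 was 92.7% identical to that of Vmn1r30, 115 kb from an anchor. The closest relatives of Vmn1r1 and Vmn1r171 were at 51.9 and 51.5%, against a median closest identity of 89.1% over the 206 windows. The 51.5% was the lowest of these. A closest identity is the highest of many pairs, so it cannot be set against the 48.2%, a median of single pairs. The record of Vmn1r171 does not begin with ATG, so its window is not placed at the start codon as most others are. Its low identity may come from that placement, which was not tested.

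Short motifs were looked for on both strands in the 250 bases before the record start, as a description of sequence and not of binding. TATAAA was present in 81 of 206 Vmn1r windows (39.3%), against 11.7% of 20085 windows of autosomal protein-coding genes, and Vmn1r171 was the 1 gene of the 4 that held it. The homeodomain core TAATTA was present in 7.28%, against 4.26%, and the E-box CAGCTG in 2.43%, against 12.2%. TCCC and GGGA with 2 bases of any kind between them, a form of the Ebf site, were in 0 of 206 windows, against 0.846% of all. A floor of 3 counts allows a share of up to 1.46% in Vmn1r windows, which takes in the value of all genes. The median GC content of these windows was 34.6% in Vmn1r genes and 56% in all genes. For most Vmn1r genes this is sequence before the start codon and may not be the promoter. Of the 206 start windows, 100 were at least 90% identical to that of another Vmn1r gene. Counts of windows with a motif are thus not counts of separate sequences.

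The longest array with a loop was the chromosome 7 cluster from Vmn1r91 to Vmn1r183, with 86 genes over 3955 kb. Its 70 lower genes, Vmn1r91 to Vmn1r166, lay in a stretch of 4415 kb without any anchor (18910001 to 23325000), 32nd in length of 7710 such stretches on the autosomes. None of the 70 genes was inside a loop, and their median distance to an anchor was 1376 kb. Most of these genes have a near-identical copy, by the start windows, and how uniquely reads could be placed on them was not tested. Of the 16 genes above this stretch, Vmn1r167 to Vmn1r183, 10 were inside a loop and the median distance was 40.0 kb. All 5 anchors of the cluster lay above Vmn1r166. Those in the gap before Vmn1r167 began 73.3 kb above Vmn1r166, and the others lay among the 16 genes.

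Both loops that joined sites inside a Vmn1r cluster were in this upper end. They started in adjoining bins within Nlrp4e, an NLRP family gene, at chr7:23325001-23350000 and chr7:23350001-23360000. The first reached Vmn1r174 at chr7:23750001-23775000 and the second reached Vmn1r171 at chr7:23630001-23640000. The second had a peak score above 98.5% of loops of 10 kb pixels. Its peak pixel, taken to be the contact value at the loop's centre, was above 99.1% of them. The first stood at 92.2% and 88.5% among loops of 25 kb pixels. The remaining loop, of 400 kb, joined chr7:23960001-23970000, between Vmn1r180 and Vmn1r181, to an anchor at Kcnn4, a potassium channel gene. Its peak score of 3.96 was near the middle of its pixel size (48.4%) and its peak pixel near the bottom (2.36%).

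Sequence similarity changed at the same place along this cluster. Of the 68 windows held for the 70 lower genes, 64 were at least 98% identical to the window of another Vmn1r gene and 52 were 100% identical, with a median of 100%. Of the 15 windows held for the 16 upper genes, 4 were at least 98% identical to another and the median was 92.2%. In the upper genes the closest relatives mirrored each other across Vmn1r171 to Vmn1r174. Vmn1r168 paired with Vmn1r177 (98%), Vmn1r169 with Vmn1r176 (97.0%) and Vmn1r170 with Vmn1r175 (92.2%), the lower gene of each pair on the plus strand and the upper on the minus strand. The part of sequence similarity in the number of loops was not tested. The 22 windows of Vmn1r66 to Vmn1r90, with no loop, had a median closest identity of 61.7%, and the 12 windows of the chromosome 17 cluster, also with no loop, 54.2%. The 45 windows on chromosome 6, where all 3 clusters had loops, had 81.3%. The 33 windows of the chromosome 13 cluster, which loops enclosed, had 75.2%. The record began with ATG in 8 of the 12 chromosome 17 windows and in 32 of the 33 chromosome 13 windows. The windows therefore do not all cover the same part of a gene. The median of 54.2% is one of closest matches, and the 48.2% of pairs from different clusters is one of single pairs, so they are unlike measures.

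**Figure D3:**
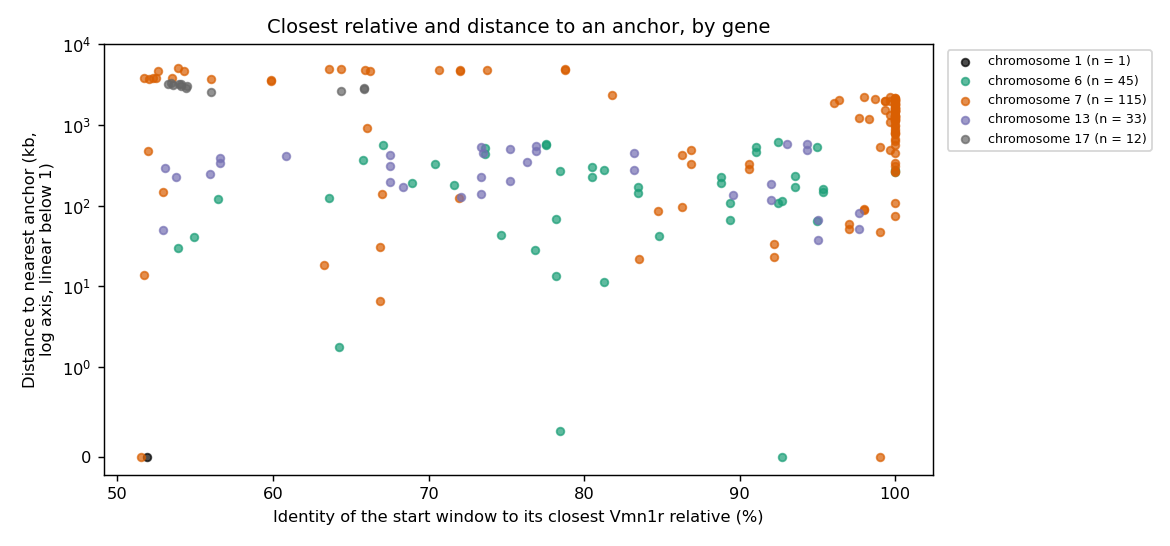
Percent identity of each gene's 300-base start window to the closest window of another Vmn1r gene (horizontal) and distance of the gene to the nearest anchor in kb (vertical, logarithmic above 1 kb and linear below), for 206 genes by chromosome. The column of chromosome 7 genes at 100% lies mostly above 100 kb. Chromosome 17 genes and many chromosome 7 genes at 50 to 80% lie above 1000 kb, and other chromosome 7 genes in that range lie nearer. Among the latter are Vmn1r171 (51.5%, 0 kb), Vmn1r180 (66.9%, 6.6 kb) and Vmn1r148 (66.0%, 910 kb).

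On chromosome 6, the cluster from Vmn1r4 to Vmn1r31 (28 genes, 1549 kb), which holds V1rc genes, had 4 loops, and all 4 ran from inside the array to 1 lncRNA gene above it. The lower anchors were at chr6:57970001-57980000 with Vmn1r25, at 58080001 to 58090000, at 58140001 to 58150000 and at 58310001 to 58320000. The last of these began 1.79 kb above Vmn1r29. The first 3 shared the upper anchor chr6:58760001-58770000 and the last ended at 58780001 to 58790000, both within the lncRNA gene Gm38822, beyond Abcg2. Spans were 790, 680, 620 and 470 kb, and peak scores were 4.89, 6.15, 4.56 and 5.13, all above the middle of 10 kb loops (percentiles 79.8, 93.9, 71.8 and 84.4). Their peak pixels were not high, at percentiles 18.3, 52.9, 8.47 and 33.3. The shared upper anchor had 4 loops in all. The other one, of 180 kb with a peak score of 4.19, came from an anchor 107 kb above the last Vmn1r gene and thus just outside the 100 kb limit. Of the 28 genes, 21 (Vmn1r4 to Vmn1r24) lay in a stretch of 1270 kb without an anchor, and 7 were inside a loop.

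**Figure D4:**
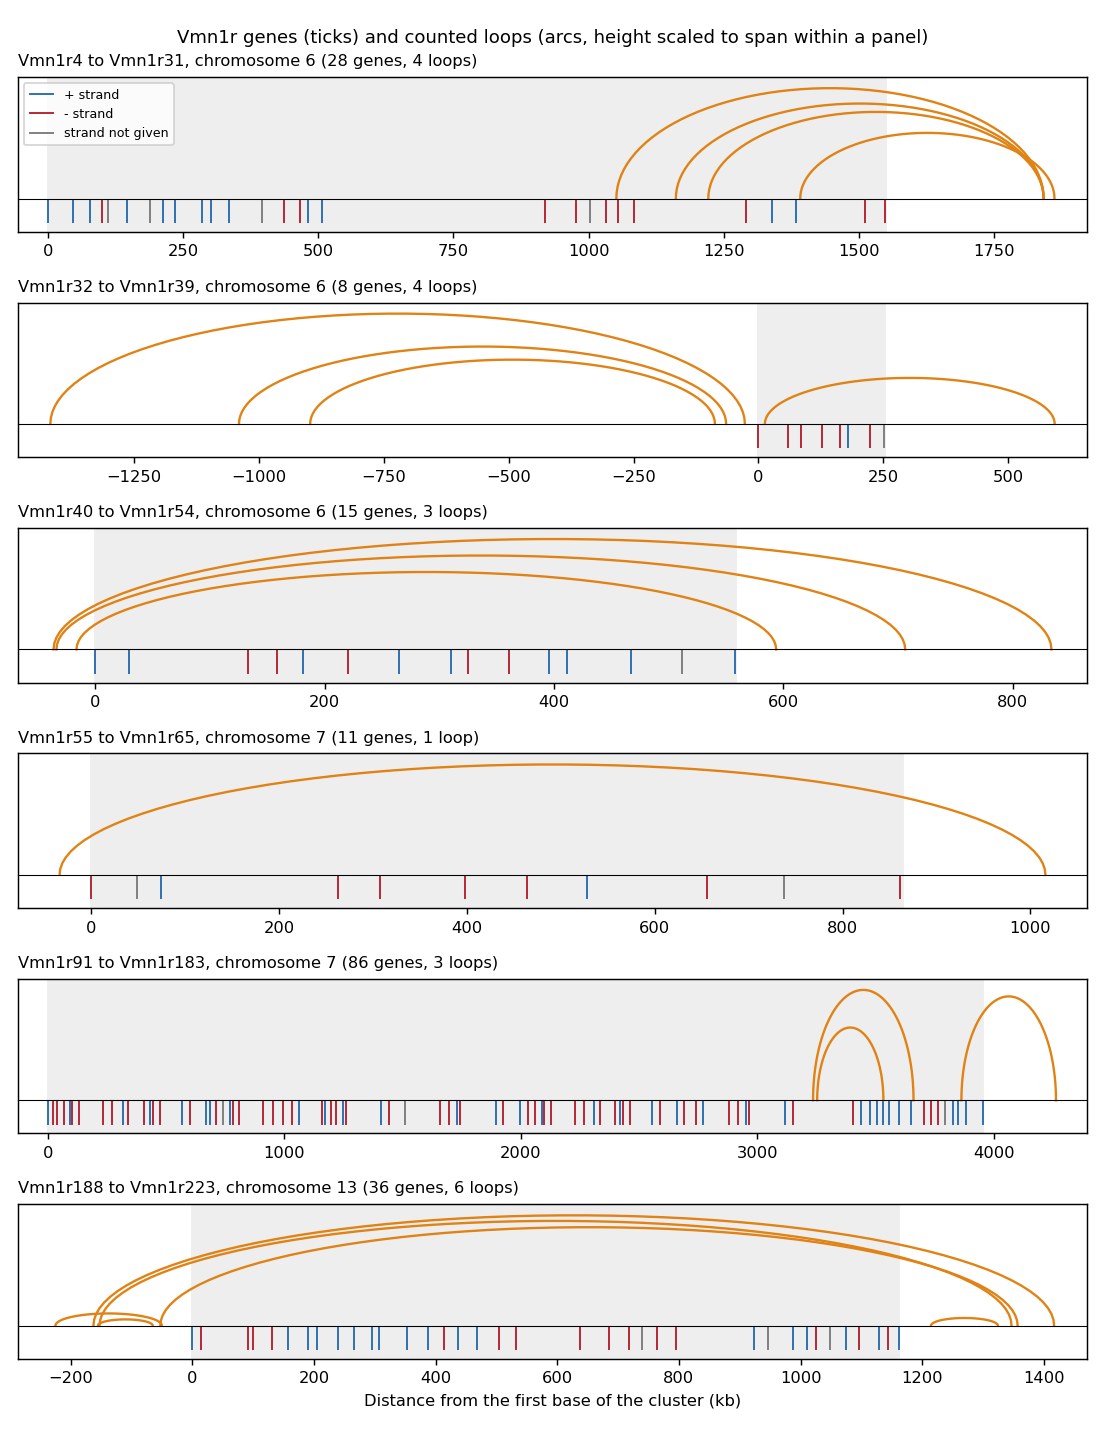
Vmn1r genes (ticks, coloured by strand) and counted loops (arcs between anchor midpoints) in the 6 multi-gene clusters with loops, by distance from the first base of the cluster in kb. Grey marks the cluster and arc height is scaled to the span within a panel. Arcs of the Vmn1r4 to Vmn1r31 cluster meet near 1 upper end, 2 arcs of the Vmn1r91 to Vmn1r183 cluster stand at its upper end, and 3 arcs span the Vmn1r188 to Vmn1r223 cluster.

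The cluster from Vmn1r32 to Vmn1r39 (8 genes, 253 kb) also had 4 loops, 3 of which ended below it and 1 inside it. The 3 outer loops came from lower coordinates, spanned 1390, 975 and 810 kb, and ended 22.2, 52.2 and 82.2 kb below the cluster. Their peak scores were 5.64, 3.54 and 4.57, the first from an anchor within Hpgds, a prostaglandin synthase gene. The inner loop began at chr6:66560001-66570000, 0.293 kb above Vmn1r32, and ran 580 kb to higher coordinates over the other 7 genes, with a peak score of 4.22. Its peak pixel was at percentile 0.952 of 10 kb loops. The loops thus ran away from the lower edge of the array to both sides.

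The cluster from Vmn1r40 to Vmn1r54 (15 genes, 559 kb), of V1ra and V1rb genes, held no anchor and was enclosed by 3 loops. Of their lower anchors, 2 lay at Txnrd3, a thioredoxin reductase gene, each 31.3 kb below the first receptor gene. The remaining 1 lay above Txnrd3, 11.3 kb below the first receptor gene. The tightest joined chr6:89690001-89700000 to chr6:90300001-90310000, with ends of BC048671 and Chst13, a sulfotransferase gene, with a span of 610 kb and a peak score of 5.41. It enclosed 17 protein-coding genes, of which 15 were Vmn1r genes. The other loops spanned 740 and 870 kb, with peak scores of 5.51 and 6.08, and ended in Cfap100 and beyond. These 3 scores were at percentiles 88.0, 67.6 and 93.4 of their pixel sizes.

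On chromosome 13, the cluster from Vmn1r188 to Vmn1r223 (36 genes, 1162 kb, V1rh and V1ri genes) lay between histone and tRNA genes, and its loops ended there. It held no anchor inside. There were 3 loops around it, of 1580, 1500 and 1410 kb, and 3 short loops beside it, of 175, 90 and 110 kb. All 12 anchors of these 6 loops overlapped at least 1 tRNA gene, with 1 to 6 genes each. After merging they formed 10 anchors, of the 26 among all 8507 merged autosomal anchors (0.306%) that overlap a tRNA gene. None of the 36 anchors of the other counted loops did so. Of 391 autosomal tRNA genes, 34 lay within 500 kb below the cluster, 45 within 500 kb above it and 0 in it.

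The 3 enclosing loops had strong peak pixels and modest peak scores. They joined chr13:21920001-21930000 to chr13:23500001-23510000, chr13:21930001-21940000 to chr13:23430001-23440000, and chr13:22030001-22040000 to chr13:23440001-23450000. The lower anchor of the last held ends of the histone genes H2ac12 and H2bc12. Their peak pixels were at percentiles 94.2, 97.3 and 78.7 of 10 kb loops and their peak scores of 3.69, 3.62 and 3.85 at 35.1, 31.9 and 43.3. Of the short loops, that of 175 kb ended in a bin with H2ac12, H2bc12, H4c9, H2ac11 and H2bc11, and that of 110 kb lay above the cluster. All 36 Vmn1r genes of the cluster were inside a loop through the 3 enclosing loops.

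The other clusters with loops were those of Vmn1r1, with 3 loops, and of Vmn1r55 to Vmn1r65, with 1. Beside the loop at Vmn1r1, a loop of 400 kb enclosed this gene (peak score 4.34). A loop of 230 kb ended 37.2 kb below it, between lncRNA genes on either side of Enah, with the highest peak score of the 24 (9.85, percentile 99.0 of 5 kb loops). The cluster from Vmn1r55 to Vmn1r65 on chromosome 7 (11 genes, 865 kb) held no anchor and was enclosed by 1 loop of 1050 kb with a peak score of 3.92. Its lower anchor held ends of Rfpl4 and Rasl2-9 and its upper anchor ends of the zinc finger genes Zfp787 and Zfp444.

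No loop was counted for 9 clusters, which hold 46 genes. Of these, 4 lie along chromosome 7 from Vmn1r66 to Vmn1r90, with 25 genes (Vmn1r66 to Vmn1r71, Vmn1r72 to Vmn1r84, Vmn1r85 to Vmn1r89, and Vmn1r90). They share a stretch of 9990 kb without an anchor (6940001 to 16930000), the 2nd longest on the autosomes, which also holds 28 Vmn2r genes among its 138 protein-coding genes. The gene farthest from an anchor, Vmn1r76, lay 4990 kb away here. The chromosome 17 cluster, Vmn1r224 to Vmn1r237 (14 genes), lay in a stretch of 6580 kb that also holds 29 Vmn2r genes, 13th in length. Vmn1r184 and Vmn1r185 lay in one of 1155 kb. Below the first anchor of their chromosomes lay Vmn1r2 and Vmn1r3 on chromosome 4, Vmn1r186 and Vmn1r187 on chromosome 7, and Vmn1r238 on chromosome 18. The coordinates of Vmn1r186 and Vmn1r187, from 94186 to 172761, were taken as given, and their placement on the chromosome was not checked. The record of Vmn1r187 has the same length, 23885 bp, as that of Vmn1r63. In all, 179 Vmn1r genes (77.5%) lay in anchor-free stretches over 1 Mb, against 24.6% of all autosomal protein-coding genes.

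As a set, the 24 loops were longer than most. Their median span was 615 kb (quartiles 370 and 896 kb), against 325 kb (190 and 550 kb) for all autosomal loops, and 5 of 24 (20.8%) were longer than 1 Mb, against 8.34%. The rule favours long loops, since it takes those that enclose a cluster, so this is a description of the rule as well. The median peak score was 4.66, against 4.15, and 17 of 24 lay above the median of their pixel size. By position, 2 loops had both anchors inside a cluster and 7 had 1 inside, 8 enclosed a cluster with no anchor inside it and 7 had an anchor in the 100 kb flank alone. By pixel size, 5 were of 5 kb, 15 of 10 kb and 4 of 25 kb.

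**Figure D5:**
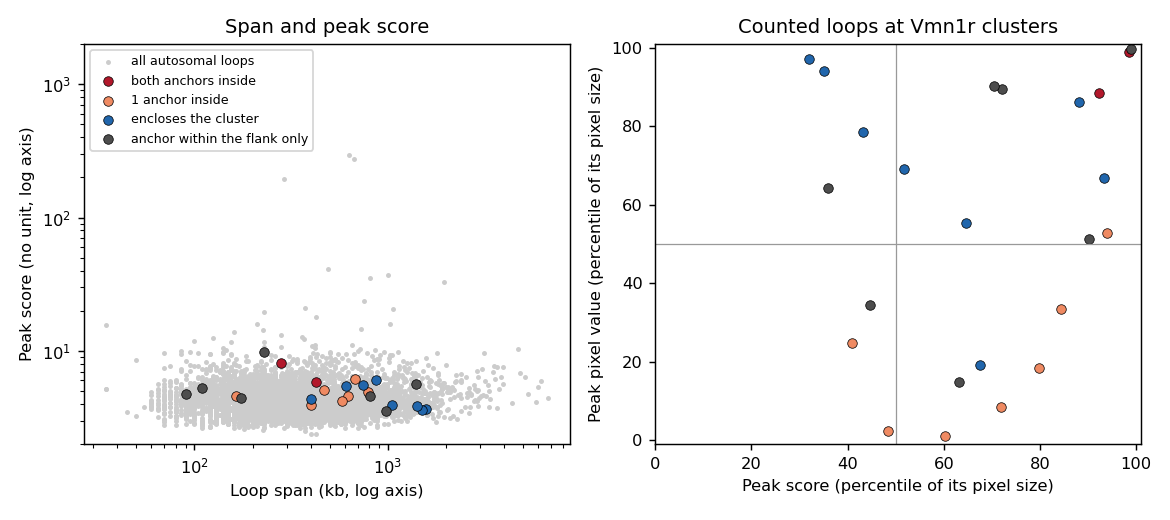
Left, span in kb and peak score (both on log axes) of the 24 counted loops, coloured by position, over all autosomal loops in grey. Right, percentile of the peak score and of the peak pixel value within loops of the same pixel size, with lines at 50. Loops with 1 anchor inside a cluster have peak pixels at percentiles from 0.952 to 52.9, and those with both anchors inside at 88.5 and 99.1.

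The subfamilies followed the clusters. Of 31 V1rc genes 11 were inside a loop, as were 13 of 19 V1rd genes. All 21 V1rh and all 9 V1ri genes were inside one, through the chromosome 13 loops, as were all 8 V1ra and all 6 V1rb genes, through the chromosome 6 loops. None of 13 V1re, 11 V1rg or 5 V1rf genes was. Ends at anchors were found in 2 V1rd genes, 1 V1rc gene and 1 gene without a subfamily synonym.

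Other genes of the vomeronasal pathway were set beside the receptors. Of 27 matched signalling and accessory genes, 1 had an end at an anchor (3.70%, against 9.19% of all genes) and 11 were inside a loop (40.7%, against 35.9% of all genes). Their median distance to an anchor was 77.7 kb, against 57.4 kb for all genes. The 1 gene was Ano1, a calcium-activated chloride channel, with 2 loops, of which the one of highest peak score spanned 190 kb (8.33). Trpc2, the transduction channel, lay 163 kb from an anchor, Gnai2, the inhibitory G protein subunit of these neurons, 94.1 kb, and Gng8, a G protein gamma subunit, 34.6 kb, and none of the 3 was inside a loop. Of 20 regulators of vomeronasal and olfactory neurons, 3 had an end at an anchor (15%, against 9.19%). They were Ebf1, an olfactory neuron transcription factor (395 kb, 9.06), Kdm1a, a histone demethylase (160 kb, 3.10), and Nrp2, an axon guidance receptor (230 kb, 2.96). Of these 20 genes 12 were inside a loop (60%, against 35.9%), and their median distance was 5.04 kb, against 57.4 kb for all genes. The distance was 0 wherever an anchor overlapped any part of a record, as for Bcl11b, Meis2 and Ebf3, which had no end at an anchor. Gene length was not accounted for in this comparison. Of 6 genes of the main olfactory pathway, 0 had an end at an anchor, which at a floor of 3 counts allows a share of up to 50%, and 1 was inside a loop (16.7%, against 35.9%).

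The count of loops depended on the flank: of the 24, 7 were counted through it alone, and a flank of 250 kb gave 34. The widest gap inside a cluster was 411 kb, between Vmn1r20 and Vmn1r21, and the narrowest between clusters 722 kb, between Vmn1r84 and Vmn1r85. The counted anchor farthest from its cluster in the flank lay 82.2 kb away, and the nearest that was not counted 107 kb away.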

How the data were processed

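Micro-C was measured in 2 samples of 1 group. The submitters' processing notes name mm10 and Juicer 1.5.6. How loops were called, at which thresholds and whether on pooled replicates is not given in the sources used here. A header is missing from the deposited list. The meanings of the columns and their units were inferred from the values. The columns were taken as the deposited peak score and regional score (no unit), a deposited fraction near 1, and the deposited signal of the peak pixel. How the authors normalized that signal is not stated. Other deposited columns, also of unstated meaning, were not used. Depth is unknown.

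Positions were made 1-based, anchors sharing a base were merged, and span was taken between anchor midpoints. Genes came from RefSeq on GRCm38.p6. The Vmn1r, Vmn2r, Olfr, Tas2r and Taar families were taken by symbol prefix. Of 28 vomeronasal signalling entries 27 matched, and all entries of the other pathway lists did. Windows of 206 of the 231 genes were aligned globally in Biopython 1.88 (match 1, mismatch -1, gap opening -3, extension -1), and identity is over alignment columns. Shares carry exact Clopper-Pearson and densities exact Poisson 95% intervals (SciPy 1.17.1), and a count of 0 has a floor of 3 counts, which is lower than the exact limit for 0 of 35. No test was run, because neither genes nor loops stand for replicate samples.

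Members and lists were chosen with earlier results of these data known. Named genes were every Vmn1r gene at an anchor, the first and last gene of each cluster, genes at anchors of counted loops and pathway genes at anchors, with others for orientation chosen after their values were seen. The planned protein sequences were not used here. The calling of ends, loops and distances was tested on simulated loops. Alternatives varied the gap, flank, pixel sizes, score threshold, overlap and distance rule.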

Additional observations from a re-analysis of the deposited data

How the results depend on the processing

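No paired analysis was possible because loops were deposited as 1 list for the group, which also kept single replicates from being left out. Of 22 alternative values, 20 stayed within 1.5 times the count or within the counting interval of the value reported in size. The count of loops ranged from 17 (no flank) to 34 (flank of 250 kb) around 24. Anchors per Mb ranged from 0.819 to 1.00, the share of genes with an end at an anchor from 1.299 to 2.60%, and the median distance from 506 to 558 kb. The values they were set against moved too. With loops scoring above the median at their pixel size, anchors per Mb were 0.819 over the clusters and 1.80 over the autosomes. In that setting 1.299% of Vmn1r genes and 4.80% of all genes had an end at an anchor. With anchors widened by 5 kb the shares were 2.60 and 16.5%. The share of Vmn1r genes inside a loop, 37.7%, was 17.3% with loops of 1 Mb or less, which leaves out the loops around Vmn1r188 to Vmn1r223 and Vmn1r55 to Vmn1r65. It was 21.2% with loops scoring above the median at their pixel size, which leaves out the loops around Vmn1r188 to Vmn1r223 and that to Kcnn4. Against all genes the share turned from above (35.9%) to below in both settings (30.3 and 23.4%). The interval of the 37.7%, 31.4 to 44.3%, took in the 35.9%, and no intervals were computed for the other settings. With that score threshold the median distance of all genes was 173 kb, and that of Vmn1r genes was still 506 kb. Without depth, a missing loop cannot be told from one too weak to call, and the mapping of reads to near-identical copies was not tested.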

Other observations

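Most Vmn1r pseudogenes, which the rule leaves out, lay among the same arrays, and some lay on other chromosomes, such as Vmn1r-ps1 on chromosome 2. Of 141 autosomal ones, 1 (0.709%, with an exact 95% interval of 0.0180 to 3.89%) ended inside an anchor, against 9.19% of all protein-coding genes. It was Vmn1r-ps25, in the lower anchor of the tightest loop around Vmn1r40 to Vmn1r54. Of the pseudogenes 71 (50.4%) were inside a loop, against 35.9%, and their median distance to an anchor was 448 kb, against 57.4 kb. Of these 71, 36 lay within the chromosome 13 cluster and were enclosed by the same 3 loops, so the 50.4% rests largely on 1 locus.

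The rule by symbol also leaves out V1ra8 and V1rd19, protein-coding genes named as type 1 receptors. V1ra8 was inside the 3 loops around Vmn1r40 to Vmn1r54 and lay 96.3 kb from an anchor. V1rd19 was inside 1 loop, that to Kcnn4, and lay 33.1 kb from an anchor.

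Formyl peptide receptor genes, another receptor group of vomeronasal neurons, lay far from anchors in part. Fpr-rs3 was 2724 kb away, Fpr-rs6 2282 kb, Fpr-rs7 2213 kb and Fpr-rs4 122 kb.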
